A study of Danio rerio with 2 samples.

Results

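Fatty acid synthesis, elongation and desaturation genes were followed in the livers of zebrafish (Danio rerio) on a high-fat diet, in wild-type fish and in ambp-/- fish. The 10 genes were acly, acaca, mid1ip1b, fasn, elovl6, elovl5, elovl2, scd, fads2 and srebf1, chosen by symbol from a table of 25939 genes. They filled 11 rows, because acly names 2 Ensembl genes. Poly(A) RNA from liver gave 1 library per genotype, and both genotypes received the diet, so no untreated liver enters the comparison. Neither the number of fish behind a library, nor their age, sex, strain background or the nature of the ambp lesion is given in the sources used here. With 1 library per group there is no replicate check, no test and no p-value, and every interval below is a 95% interval for counting error alone.

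Hepatocytes build fatty acids from citrate that leaves the mitochondrion. ATP-citrate lyase (acly) splits it to cytosolic acetyl-CoA, acetyl-CoA carboxylase (acaca) turns that into malonyl-CoA, and fatty acid synthase (fasn) assembles palmitate from both. Elongases (elovl genes) add carbons in the endoplasmic reticulum, where the desaturases scd and fads2 insert double bonds, and in mammals the transcription factor SREBP-1, encoded by srebf1, drives many of these genes.

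The deposited gene counts, rounded, summed to 15659846 reads for wild type and 18357830 for the knockout, and these sums served as library sizes. Levels are given as CPM, read counts relative to library size, with TMM scaling between the libraries, and 1 read was worth 0.0697 CPM for wild type and 0.0499 CPM for the knockout. The targeted gene ambp, which encodes the precursor of alpha-1-microglobulin and bikunin, had 50280 reads in the wild-type library and 3085 in the one labelled as knockout, 22.8-fold less in TMM-scaled CPM (22.0 to 23.6). The labelled tissue was checked on 8 hepatocyte rows, fabp10a and apoa2 among them, which summed to 155332 CPM in the wild-type and 136074 CPM in the knockout library.

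The pathway did not move as a block. In the knockout library the main acly gene, elovl6 and elovl5 were higher, acaca and fasn were lower, and elovl2, fads2, mid1ip1b, srebf1 and the other acly gene were inside the size rule given below. A gene was kept when it reached 1 CPM in either library, which 10 of the 11 rows did, all of them in wild type already. By a rule of 2-fold on the log2 scale with 1 CPM added, 3 of these 10 rows were higher and 2 lower. Among all 11634 genes kept, 5.40% were higher, 6.40% lower and 11.8% past the rule in either direction. The median log2 ratio was -0.22 over the 10 rows and -0.0026 over all genes kept. In liver tissue, fewer cells of one type and less RNA in each cell cannot be told apart.

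Per length, the desaturase fads2 stood far above the rest in both livers. By the authors' FPKM it was at 1871 in wild type and 1525 in the knockout. In wild type the order below it was elovl2 at 64.4 FPKM, elovl6 at 45.2, fasn at 10.6, acaca at 7.37, elovl5 at 6.43, the main acly gene at 5.92 and mid1ip1b at 3.24. In the knockout elovl6 came second at 198 FPKM, ahead of elovl2 at 57.4, acly at 36.1, elovl5 at 16.45, mid1ip1b at 3.71, fasn at 2.67 and acaca at 1.81. The second acly gene, srebf1 and scd were below 1 FPKM in both. Without replicates, no spread is available to tell neighbours in either order apart. The main acly gene moved from place 7 to 4, whereas fasn moved from place 4 to 7 and acaca from 5 to 8.

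**Figure D1:**
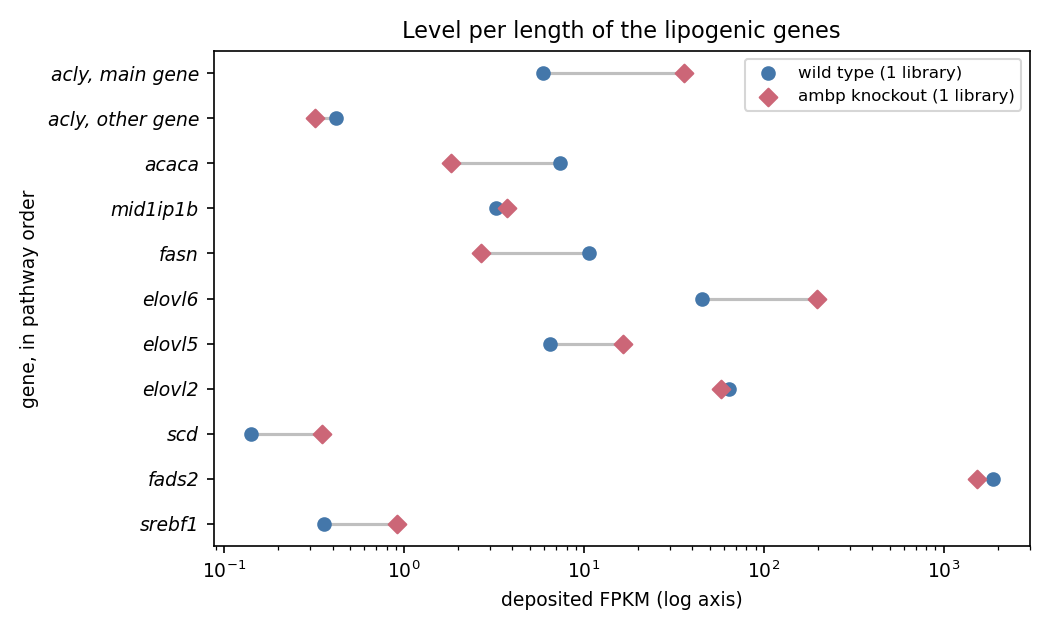
Deposited FPKM of each gene (log axis) in the wild-type library (circles) and the ambp knockout library (diamonds), in pathway order with a line joining the libraries. The main acly gene, elovl6 and elovl5 lie to the right in the knockout, acaca and fasn to the left, and fads2, at 1871 and 1525 FPKM, is far above the rest in both.

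Of the pair of acly genes 1 held nearly all the reads, and it had the highest ratio of the set. This gene (ENSDARG00000099079) had 461 wild-type and 3290 knockout reads, or 32.1 CPM (29.3 to 35.2) and 164 CPM (159 to 170). The knockout level was 5.11-fold the wild-type level (4.63 to 5.64), with a log2 ratio of 2.32, and 0.327% of all genes kept had a higher ratio. The other gene named acly (ENSDARG00000055652) had 28 and 25 reads, with a fold of 0.639 (0.357 to 1.14). The RefSeq table of the zebrafish assembly GRCz12tu lists aclya and aclyb, but the names used here do not say which row is which, and reads of such paralogs could be shared in counting. Both acly rows held whole read counts.

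Of the palmitate synthesis genes, acaca and fasn were lower in the knockout library, and to a similar degree. The carboxylase gene acaca (ENSDARG00000078512) had 965 wild-type and 277 knockout reads, 67.3 CPM (63.1 to 71.7) and 13.8 CPM (12.2 to 15.5). That is 4.87-fold lower (4.26 to 5.58), a log2 ratio of -2.20. The synthase gene fasn (ENSDARG00000087657) had 1665 and 486 reads, 116 CPM (111 to 122) and 24.2 CPM (22.1 to 26.5). It was 4.79-fold lower (4.32 to 5.31), with a log2 ratio of -2.21, and 0.542% of genes kept had a lower ratio, against 0.559% for acaca. The carboxylase helper mid1ip1b (ENSDARG00000019302), whose mammalian relative promotes polymerisation of acetyl-CoA carboxylase, was near the same level in both. Its 94 and 126 reads gave 6.55 CPM (5.30 to 8.02) and 6.29 CPM (5.24 to 7.48), a fold of 0.959 (0.729 to 1.27). The sign of its log2 ratio, -0.05, changed with the scaling between libraries.

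The 3 elongase genes did not move together. For elovl6 (ENSDARG00000004402), which in mammals lengthens palmitate to stearate, there were 1399 wild-type and 7188 knockout reads, or 97.5 CPM (92.5 to 103) and 359 CPM (350 to 367). The knockout was 3.68-fold higher (3.47 to 3.90), with a log2 ratio of 1.87, and 0.636% of genes kept had a higher ratio. The polyunsaturated fatty acid elongase elovl5 (ENSDARG00000004979) had 222 and 666 reads, 15.5 CPM (13.5 to 17.7) and 33.2 CPM (30.8 to 35.8). It was 2.15-fold higher (1.84 to 2.51), just past the size rule at a log2 ratio of 1.05, and 4.62% of genes kept had a higher ratio. With 5 CPM added in place of 1 its log2 ratio was 0.90, inside the rule. By contrast elovl2 (ENSDARG00000045414), which takes the longest polyunsaturated chains further, had 3870 and 4049 reads, 269.8 CPM (261 to 278) and 202 CPM (196 to 208). Its fold was 0.749 (0.716 to 0.783), a log2 ratio of -0.42 and within the rule. That log2 ratio ran from -0.43 to -0.16 over the 8 scalings, pseudocounts and units tried. Among the 11 rows, elovl2 alone had a read estimate that was not whole.

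Of the desaturases, fads2 was abundant and scd almost absent. In zebrafish the fads2 enzyme performs both front-end desaturation steps of polyunsaturated fatty acid synthesis. Its gene (ENSDARG00000019532) had 47899 wild-type and 46559 knockout reads, 3340 CPM (3310 to 3370) and 2323 CPM (2302 to 2344). The fold was 0.696 (0.687 to 0.705), with a log2 ratio of -0.52, and 19.1% of genes kept had a lower ratio. Over the 8 scalings, pseudocounts and units tried, the log2 ratio of fads2 ran from -0.54 to -0.27, which the counting interval does not cover. This row is fads2 in the authors' table and in RefSeq, while the Ensembl-based name table gives it the human-style name FADS3. The 10 genes together took 0.362% of wild-type and 0.342% of knockout reads, and fads2 alone was 84.6% and 74.2% of that. The stearoyl-CoA desaturase gene scd (ENSDARG00000033662), whose enzyme makes oleate, had 3 and 10 reads. At 0.209 CPM (0.0431 to 0.611) and 0.499 CPM (0.239 to 0.918) it was under the 1 CPM filter in both libraries, and its ratio of 2.39 (0.614 to 13.5) gives no direction at this depth.

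The regulator srebf1 (ENSDARG00000067607) was itself a low-count gene. It had 16 wild-type and 47 knockout reads, 1.12 CPM (0.638 to 1.81) and 2.34 CPM (1.72 to 3.12). The ratio without a pseudocount was 2.10 (1.17 to 3.97), and the log2 ratio with 1 CPM added was 0.66, within the size rule. It passed the rule when the pseudocount was lowered to 0.1 CPM, at a log2 ratio of 1.01. The log2 ratio of srebf1 was above 0 in all 8 settings tried, and those of fasn and acaca were below 0 in all 8. These settings reuse the same libraries, so their agreement in sign adds no evidence for a direction.

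**Figure D2:**
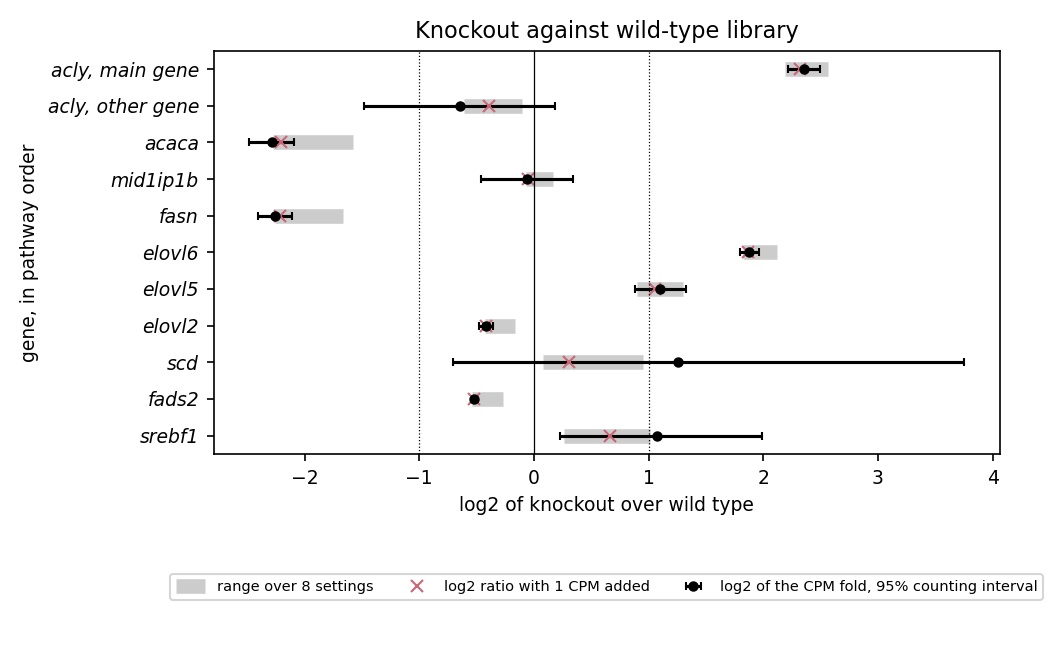
Knockout over wild type on a log2 axis for each gene, with black points for the CPM fold and its 95% counting interval, crosses for the ratio with 1 CPM added, and grey bars for the range over 8 scalings, pseudocounts and units. The dotted lines mark 2-fold. The main acly gene, elovl6, acaca and fasn lie beyond them in all 8 settings, and scd and srebf1 have the widest intervals.

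Ratios between genes inside a library do not depend on how the libraries are scaled to each other. For each fasn read there were 0.277 reads of the main acly gene in the wild-type library and 6.77 in the other, a 24.4-fold shift (21.2 to 28.2). Against this, the balance of acaca to fasn was 0.580 and 0.570 reads, a shift of 0.983 (0.828 to 1.17), and the interval holds 1. For each elovl6 read there were 1.19 wild-type and 0.0676 knockout reads of fasn, 17.6-fold fewer (15.6 to 19.8). For each elovl2 read there were 0.0574 and 0.164 reads of elovl5, a 2.87-fold shift (2.44 to 3.37). For each fads2 read there were 0.0808 and 0.0870 reads of elovl2, a shift of 1.08 (1.03 to 1.13). In FPKM, where length is accounted for, acly stood at 0.803 of acaca in wild type and at 19.9 times acaca in the knockout. These pairs were picked from 78 after their values were seen, and their intervals hold no variation between fish.

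Close relatives of acaca and elovl6 lay within 2-fold between the libraries. The second carboxylase gene acacb (ENSDARG00000061994), whose mammalian product sits at the mitochondrion and restrains fatty acid import, had 2037 wild-type and 2445 knockout reads. It was at 142 CPM and 122 CPM, a fold of 0.859 (0.810 to 0.911), and its log2 ratio of -0.22 kept no single sign, with a range of -0.23 to 0.04 over the scalings, pseudocounts and units tried. By the authors' FPKM acacb stood above acaca in both libraries, at 16.5 in wild type and 17.0 in the knockout against 7.37 and 1.81. Relative to acacb, acaca was 4.18-fold lower (3.61 to 4.86) in the knockout. A second row that the authors' table calls elovl6 is zgc:92749 (ENSDARG00000012632) in the Ensembl-based and RefSeq tables. It had 1666 and 2175 reads, with a fold of 0.934 (0.876 to 0.996) and log2 ratios of -0.11 to 0.15 over the same settings. Relative to it, elovl6 was 3.94-fold higher (3.61 to 4.29) in the knockout. Within the acly pair the corresponding shift was 7.99-fold (4.45 to 14.4). The second acly gene had a fold of 0.639, but at 28 and 25 reads its interval (0.357 to 1.14) reached past a 2-fold drop.

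Of 16 other rows from these families, 7 passed the filter, and 0 of them were higher and 1 lower by the size rule. The shares over all genes kept were 5.40% higher and 6.40% lower. The lower row was a gene named elovl1 (ENSDARG00000099960), whose mammalian relative lengthens saturated very long chains, with 53 and 25 reads and a log2 ratio of -1.06. The rest kept were another elovl1 row (ENSDARG00000103735), elovl8b, mid1ip1l and srebf2, besides acacb and zgc:92749. Among them elovl8b had 313 and 690 reads (log2 ratio 0.63) and mid1ip1l 93 and 76 (log2 ratio -0.64). For srebf2, which encodes the sterol-directed relative of SREBP-1, the counts were 152 and 170 (log2 ratio -0.29). The second stearoyl-CoA desaturase gene, scdb, had 5 and 4 reads, so scd and scdb were under 1 CPM in both livers.

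**Figure D3:**
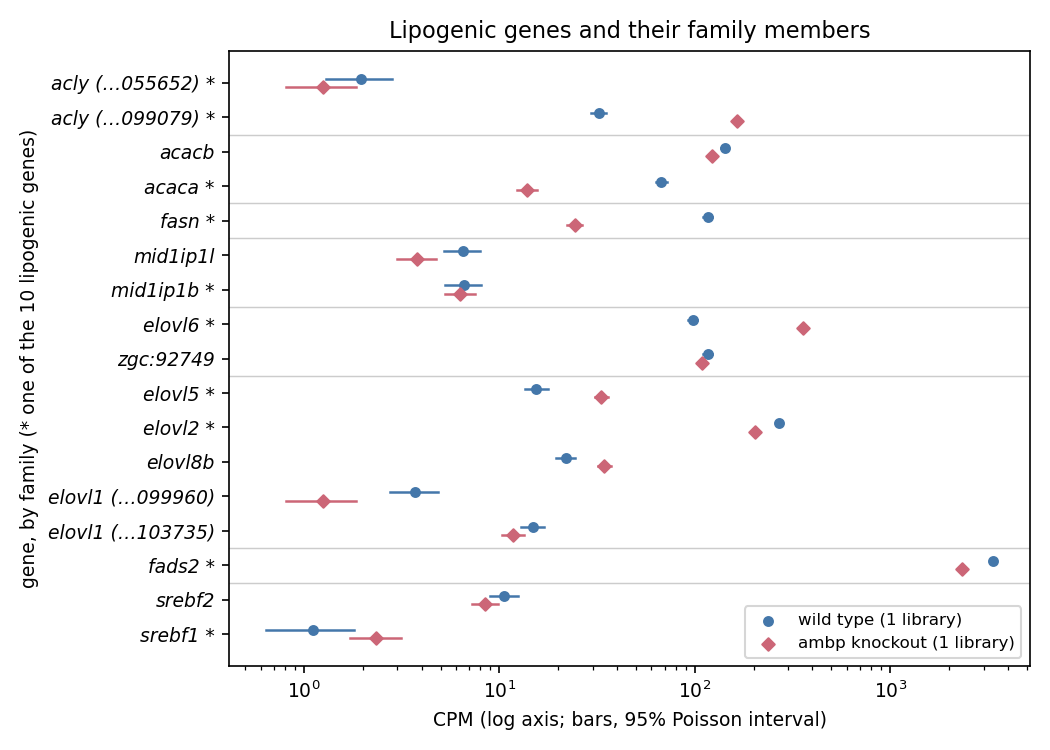
CPM (log axis) with 95% Poisson intervals in the wild-type library (circles) and the ambp knockout library (diamonds), for the kept genes and their kept family members, with lines between families and an asterisk on each of the 10 genes. CPM is not divided by length, so points compare the libraries within a gene. The libraries separate for acaca but lie close for acacb, and separate for elovl6 but lie close for zgc:92749.

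**Figure D4:**
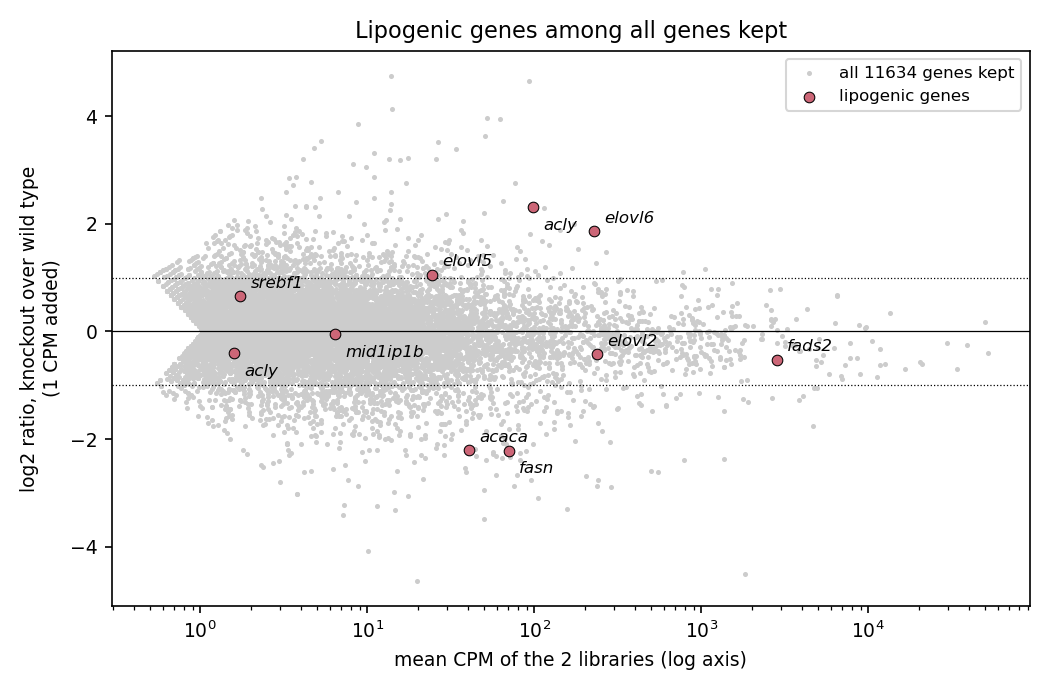
Log2 ratio of knockout over wild type with 1 CPM added against the mean CPM of both libraries (log axis), for all 11634 genes kept (grey) and the kept lipogenic genes (red). The main acly gene and elovl6 lie towards the top of the cloud, acaca and fasn towards its bottom, and mid1ip1b in its middle.

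The wider pathway was read from lists of genes for each step, described by counts and medians. Over all genes kept, 5.40% were higher and 6.40% lower by the same rule, with a median log2 ratio of -0.0026. Supply of carbon and reducing power had 14 kept rows apart from acly, of which 3 were higher and 1 lower, with a median log2 ratio of 0.19. Furthest higher was acot12, an acyl-CoA thioesterase that releases acetate from acetyl-CoA in the cytosol, with 97 wild-type and 2379 knockout reads (17.6-fold, 14.3 to 21.7). The mitochondrial citrate carrier, which exports the substrate of acly, has a pair of genes that went opposite ways. For slc25a1b (ENSDARG00000076381) the counts were 82 and 487, 4.25-fold higher (3.36 to 5.44), and for slc25a1a (ENSDARG00000057110) they were 36 and 7, a fold of 0.139 (0.0523 to 0.317), so that slc25a1a passed the filter through the wild-type library alone. The mitochondrial pyruvate carrier subunit mpc2 has a pair of rows too. One (ENSDARG00000037679) had 194 and 907 reads and a log2 ratio of 1.67, and the more abundant one (ENSDARG00000024478) had 3131 and 8674 reads and 0.98, just inside the rule. Malic enzyme, me1, a source of NADPH for fasn and the other most abundant gene of the list, had 5347 and 7803 reads and a log2 ratio of 0.06.

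Beyond the 10 genes, the synthesis and desaturation lists held no kept row past the rule of 2-fold with 1 CPM added, and elongation held 1. In the synthesis list 5 other rows were kept, from -0.64 for mid1ip1l to 0.51, with a median of -0.05. The elongation list had 9 other kept rows with a median of -0.32, and its 1 lower row was the elovl1 gene already given. The 3-ketoacyl-CoA reductase gene hsd17b12a (ENSDARG00000015709) had 19 and 5 reads. Its fold was 0.188 (0.0550 to 0.521) without the added 1 CPM, and its log2 ratio with it was -0.90, inside the rule. The far more abundant hsd17b12b (ENSDARG00000035872) had 524 and 782 reads, a fold of 1.07 (0.955 to 1.195) and a log2 ratio of 0.09. The elongases work with a shared dehydratase and reductase, and the most abundant dehydratase gene, hacd2, had 5842 wild-type and 4818 knockout reads (fold 0.590, 0.568 to 0.613). The trans-enoyl-CoA reductase gene tecr (ENSDARG00000025904) had 1153 and 1826 reads, a log2 ratio of 0.18. Desaturases take electrons through cytochrome b5 and its reductase. In that list 8 other rows were kept, with a median of -0.39, and the most abundant by mean CPM of both libraries were cyb5a with 6766 and 7567 reads (log2 ratio -0.32) and cyb5r3 with 355 and 281 (log2 ratio -0.78). Another reductase gene, cyb5r4, had 46 and 27 reads. Its fold was 0.420 (0.251 to 0.690) without the added 1 CPM, and its log2 ratio with it was -0.84, also inside the rule. The more abundant cyb5r2 went the other way, with 141 and 312 reads, a fold of 1.58 (1.29 to 1.95) and a log2 ratio of 0.61. For cyb5r1, named CYB5R3 in the authors' table, the counts were 80 and 104 (log2 ratio -0.09). The genes hsd17b12a, hsd17b12b, cyb5r1, cyb5r2 and cyb5r4 were named after their values were seen.

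Genes that control lipogenesis ranged from -1.39 to 1.82 on the log2 scale. Of 34 kept rows apart from srebf1, 7 were higher and 2 lower, and the median was 0.11. The shares over all genes kept were 5.40% higher and 6.40% lower. The wild-type level was at least 1 CPM for 29 of the 34, and 3 of those 29 were higher. No matching share over all genes kept in wild type was computed. The other 4 higher rows were kept because of their knockout level, so they had to lie above wild type, and the count of 7 is no support for a direction. These 4 were insig2, rxraa, a Mlxipl row and usf1. The insig2 row (ENSDARG00000113367), named insig1 in the authors' table, had 0 and 23 reads. In mammals both INSIG proteins retain SREBP in the endoplasmic reticulum. The receptor partner rxraa had 4 and 34 reads, and the row that the authors' table calls Mlxipl, the name of the carbohydrate-responsive factor ChREBP, had 13 and 90. The Ensembl-based table gives the name mlxipl to another row (ENSDARG00000104054), which the authors' table calls Mlxip. That row had 4 and 21 reads and a log2 ratio of 0.68, inside the rule, and was also kept through the knockout library alone. For usf1, an E-box factor, the counts were 12 and 110. More abundant relatives of insig2 and usf1 lay inside the rule. The insig1 row (ENSDARG00000010658) had 273 and 389 reads (log2 ratio 0.03). The usf1l row (ENSDARG00000014463), named usf1 in the authors' table, had 209 and 417 (log2 ratio 0.49).

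The 3 higher control genes kept in wild type were prkag2 (ENSDARG00000012625), ppargc1b and tm6sf2a. The first encodes a subunit of the AMP-activated kinase, which phosphorylates acetyl-CoA carboxylase, and had 190 and 641 reads (log2 ratio 1.21). The other kept subunit rows of this kinase in the list were inside the rule. Their log2 ratios were -0.24 for prkaa1, -0.15 and -0.87 for the prkab1 rows and 0.16 for prkag1. The coactivator gene ppargc1b, whose product binds SREBP-1 in mice, had 55 and 295 reads (1.70 on the log2 scale). The tm6sf2a gene, of very-low-density lipoprotein loading, had 264 and 992 (log2 ratio 1.38). Lower were trib3 and a row of the insulin receptor substrate gene irs2 (ENSDARG00000037099). The trib3 row (ENSDARG00000016200) is named TRIB2 in the authors' table, and in mice trib3 promotes removal of acetyl-CoA carboxylase. For trib3 the counts were 183 and 85 (log2 ratio -1.39). For this irs2 row they were 313 and 168 (log2 ratio -1.28). The more abundant irs2 row (ENSDARG00000075282) had 464 and 649 reads and a log2 ratio of 0.0013, inside the rule. Another insulin receptor substrate gene, irs1, had 277 and 193 reads. Its fold was 0.499 (0.413 to 0.601) without the added 1 CPM, and its log2 ratio with it was -0.93, inside the rule. The most abundant genes of the list were pklr and akt2 (ENSDARG00000103612). The pyruvate kinase gene pklr, named pkm in the authors' table, is a target of ChREBP in mammals. It had 12529 and 19026 reads (log2 ratio 0.12), and that akt2 row had 2345 and 3511 (log2 ratio 0.10). A less abundant akt2 row (ENSDARG00000011219) had 125 and 354 reads. Its fold was 2.03 (1.65 to 2.51) without the added 1 CPM, and its log2 ratio with it was 0.94, inside the rule.

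**Figure D5:**
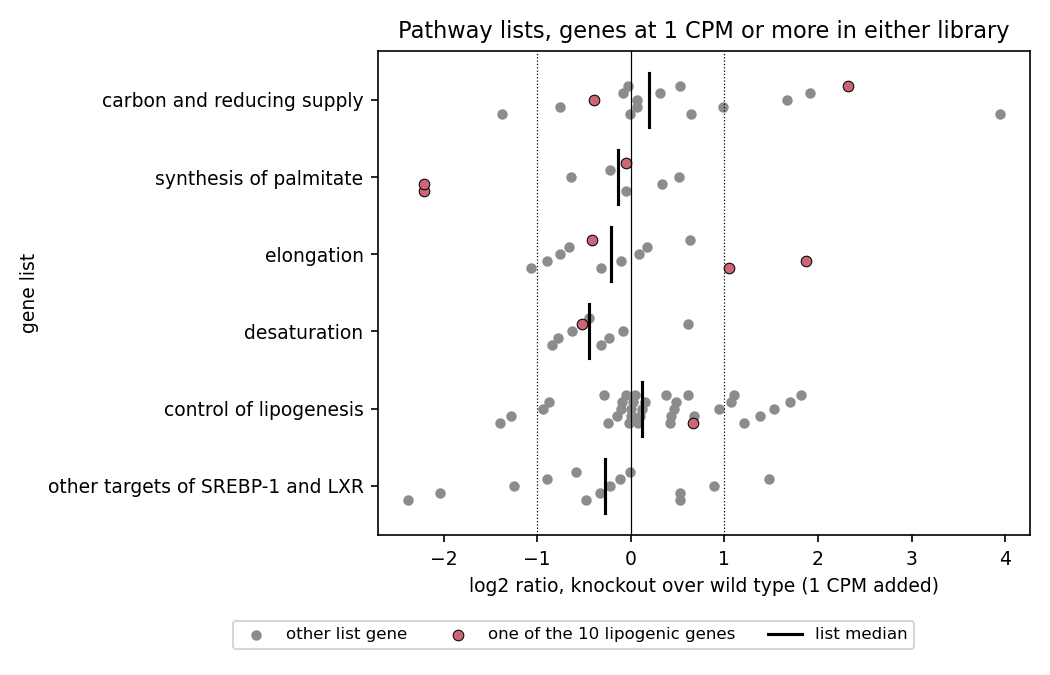
Log2 ratio of knockout over wild type with 1 CPM added for every kept gene of 6 pathway lists, with the 10 lipogenic genes in red, other list genes in grey and a bar at each list's median. Dotted lines mark 2-fold. The list medians lie between -0.45 and 0.19, and acaca and fasn stand apart from the other genes of palmitate synthesis.

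Markers of other cell types differed between the libraries at the same time. For the counts below, the shares over all genes kept were 5.40% higher and 6.40% lower. Of 12 exocrine pancreas rows 11 were kept and 10 were higher, 9 of them kept in wild type, and their summed level was 38.3 CPM in the wild-type and 438 CPM in the knockout library. The 3 endocrine pancreas genes, with ins at 1 and 65 reads, summed to 0.209 and 7.68 CPM. Of 15 macrophage rows 10 were kept and 4 were higher, 3 of them kept in wild type, with sums of 269 and 351 CPM. Neutrophil rows, 3 in all, summed to 0.349 and 32.4 CPM, with 1 at 0 in both. No endocrine or neutrophil row reached 1 CPM in wild type, so each one kept passed only through the knockout library and their calls are not counted. Erythroid rows, 4 in all, were within the rule at 381 and 207 CPM. The 3 biliary rows gave 1008 and 1438 CPM with 1 higher, the 4 endothelial rows 71.8 and 75.1 CPM with 0 past the rule, and the 5 intestinal rows 268 and 173 CPM with 1 lower. Whether these cells contributed to the lipogenic genes was not tested. Fat cells also express these genes, and of their 6 marker rows both adiponectin rows and lepb had 0 reads in both libraries and plin1 had 1 and 0. The remaining fat cell markers, cfd and fabp4a, had 393 and 826 reads and 98 and 382, and the 6 rows summed to 34.3 and 60.3 CPM with 1 higher.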

How the data were processed

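RNA from liver was sequenced as poly(A)-selected libraries made with a NEBNext Ultra kit, per the labels' protocols. The submitters' processing notes name HISAT2, featureCounts and GRCz11, with no versions. Gene-level estimated counts, as deposited, were not whole for 5.45% (wild type) and 6.01% (knockout) of genes, so they were rounded. FPKM values come from the authors too, per the file headers, and were used only to rank genes per length and as an alternative. The sources used here do not say whether counting used strand.

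Members were matched by Ensembl identifier through a name table that named 23499 rows, then by the deposited symbol. Listed names without a match were tried without their final letter or number, and 165 of 176 matched. TMM factors (0.916 and 1.09) came from edgeR 4.0.16 in R 4.3.3, and size factors for an alternative from DESeq2 1.42.0. Genes at 1 CPM in either library were kept. Log2 ratios carry 1 CPM, which shrinks those of low genes; folds carry none. Intervals are exact Poisson for levels, exact conditional binomial for folds and exact conditional odds ratios for pairs. No molecular identifiers are named in the labels, so reads need not be independent molecules, and these intervals cover counting error only. Genes named by rule were ambp, all members, the list genes past 2-fold and the 2 most abundant of each list. Family rows and some marker genes were named besides. The genes hsd17b12a, hsd17b12b, cyb5r1, cyb5r2, cyb5r4, irs1, prkaa1, prkab1, prkag1, abca1a, insig1 and usf1l were added after their values were seen. The same holds for the further irs2, akt2 and mlxipl rows. Members and lists were chosen with earlier results of these data known. The interval and size-rule code was tested on simulated data. No sequences or positions are given. Alternatives were 3 other scalings, pseudocounts of 0.1 and 5 CPM, FPKM (with 1 FPKM as pseudocount and filter), unrounded counts, no filter, a 10 CPM filter, 1.5-fold and 4-fold rules and summed acly rows.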

Additional observations from a re-analysis of the deposited data

How the results depend on the processing

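No paired analysis was possible because each group has 1 library, and for the same reason no replicate could be left out. The main acly gene, elovl6, acaca and fasn passed the 2-fold rule under all scalings, pseudocounts and units tried, with log2 ratios of 2.19 to 2.57, 1.83 to 2.12, -2.28 to -1.57 and -2.25 to -1.66. For elovl5 they ran from 0.90, with 5 CPM added, to 1.30. Of the 10 kept rows 9 had the same sign in all 8 settings, mid1ip1b (-0.06 to 0.17) being the exception. The settings reuse the same libraries, so the shared sign adds no evidence for a direction. The counting interval of the fold excluded 1 for 8 of the 10 rows, and held 1 for mid1ip1b and the second acly gene. No matching share over all genes kept was computed, so the count of 8 does not set these rows apart. The median of all genes kept was 0.22 with library totals, 0.19 without the 20 most counted genes and 0.19 with FPKM, and relative to it fasn stood at -2.18 with totals and -1.85 with FPKM.

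Members higher numbered 3 in the main analysis and 1 with a 4-fold rule, which leaves acly. Pathway genes numbered 14 higher and 9 lower. The pathway counts were 8 and 6 with 5 CPM added, 23 and 20 at 1.5-fold, 2 and 4 at 4-fold, 9 higher when 10 CPM was required, and 5 lower with FPKM. Of all genes, 628 were higher and 744 lower. The numbers became 1071 and 485 with library totals, 987 higher without the top genes, 1279 and 1212 with 0.1 CPM added, and 151 and 319 with 5 CPM. FPKM gave 358 lower. A 1.5-fold rule gave 1904 and 1971, a 4-fold rule 59 and 91, and the 10 CPM filter 227 and 433. Rules and filters alter such counts by construction; otherwise the cause was not tested. Without a filter no count changed, since 1 CPM added keeps genes under 1 CPM inside the rule.

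Depth limits scd, srebf1 and the second acly gene, with at most 47 reads in a library. With 1 library per genotype, variation between fish is unknown.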

Other observations

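Other genes known as targets of SREBP-1 or of the sterol receptor LXR, outside the enzymes of fatty acid synthesis, had a median log2 ratio of -0.28 over 14 kept rows, with 1 higher and 3 lower, against 5.40% and 6.40% of all genes kept. In wild type 12 of the 14 reached 1 CPM, and 0 of these were higher, with no matching share over all genes computed. The low-density lipoprotein receptor gene ldlra, a target of the SREBP family in mammals, had 19012 reads in the wild-type library and 5080 in the knockout, 5.23-fold lower. A phosphatidate phosphatase gene of triglyceride synthesis, lpin1 (ENSDARG00000020239), had 4076 and 1372 reads, 4.15-fold lower. For lipoprotein lipase, lpl (ENSDARG00000087697), the counts were 35848 and 21019, 2.38-fold lower. The cholesterol exporter gene abca1b had 7 and 63 reads and was the 1 higher row (log2 ratio 1.48), and it passed the 1 CPM filter through the knockout library alone. Its far more abundant relative abca1a (ENSDARG00000074635) went the other way, with 2702 and 2025 reads. The fold of abca1a was 0.536 (0.506 to 0.568), a log2 ratio of -0.89 and inside the rule.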
